A study of Mus musculus with 9 samples.

Results

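The kinetochore is the protein assembly through which a chromosome is held by the microtubules of the mitotic spindle. In stable clones of RAW-264.7, a murine macrophage line, 40 genes were followed. They were listed for the kinetochore, the centromere, the spindle checkpoint and the chromosomal passenger complex. The 40 were picked by gene symbol, with earlier results of these data known, and all 40 were found among the 16492 gene rows of the array. Cells had been transfected with the pEF6/V5-His TOPO vector, either empty or with a DNA fragment that encodes mouse FoxQ1, a forkhead transcription factor. Lines were then grown from single cells, so that each line is 1 clone. All of them, the controls included, carry the vector and were selected with blasticidin S at 6 µg/ml, and the labels name no further treatment. Total RNA of 4 RAW-vector clones (numbered 4, 5, 6 and 7) and of 5 RAW-FoxQ1 clones (7.1 to 7.5) was hybridized to 1 Affymetrix mouse array each. Values are log2 expression values as deposited, per-clone values are given in this order of clones, and a difference of 1 stands for a doubling of the signal. The labels do not say whether any of the clones descend from 1 transfected cell. The p-values set the group difference against the spread between these clones, and could be too small if clones of a group share an origin.

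In textbook terms, a centromere is marked by nucleosomes with the histone variant CENP-A, on which the inner kinetochore proteins assemble. They carry the outer kinetochore, whose NDC80 complex grips microtubules, and a fibrous corona that binds microtubules from the side. Kinetochores without attached microtubules send out the spindle checkpoint signal that delays anaphase, and the Aurora B kinase of the chromosomal passenger complex releases wrong attachments. Many of these genes are transcribed mainly in the late phases of the cell cycle, so their RNA is a common sign of dividing cells in every tissue. In RNA of whole cultures, more cells in mitosis and more RNA per cell cannot be told apart.

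The 9 arrays had been brought to 1 distribution, with a median of 7.49 each, so that a change common to all genes would not show. Across genes, arrays of 1 group correlated at 0.981 to 0.998 and arrays of different groups at 0.934 to 0.968. All 10 macrophage markers lay between the 65.9 and 100 percentile of the array signal in both groups. Their mean log2 value was 11.9 to 12.2 in RAW-vector and 11.7 to 11.8 in RAW-FoxQ1 clones (1 called higher, 4 lower). The largest fall was that of Adgre1 (log2 fold change -2.38), and the marker called higher was Fcgr1 (0.54). Markers of T cells, B cells, fibroblasts and epithelia lay at or below the 56.9 percentile. The mean log2 value of 27 poly-A spike-in control probe sets was 8.41 to 8.70 in RAW-vector and 7.92 to 8.38 in RAW-FoxQ1 clones, and that of 28 glycolysis and hypoxia genes was 10.2 to 10.9 against 9.12 to 10.0. Foxq1 itself was at 6.94 to 7.01 in RAW-vector and 7.27 to 7.44 in RAW-FoxQ1 clones, and the place of its probes relative to the transfected fragment was not stated.

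Nearly the whole set was higher in RAW-FoxQ1 clones. Of the 40 genes 37 (92.5%) were called higher, 0 lower, and 3 (Cenpa, Zwint and Mad2l2) did not pass the test, at an adjusted p under 0.05 from limma with Benjamini-Hochberg adjustment over all rows. At an unadjusted p under 0.05 from limma the count of lower genes was 1 (Mad2l2). The unmoderated per-gene test of the study's methods, at an adjusted p under 0.05, called 0 lower and 37 higher. Over the whole array 19.6% of rows were called higher and 21.4% lower (3225 and 3523 of 16492). These became 2559 and 5402 when each array was centred on 9 housekeeping genes, with the same 37 counted among the higher ones. The median log2 fold change of the 40 genes was 1.27, against -0.01 for all rows. A call together with a log2 fold change of at least 1 was reached by 25 of them (62.5%), a level that 2.31% of all rows reached. In 37 genes every RAW-FoxQ1 clone lay above every RAW-vector clone, as it did in 17.3% of all rows, and in 19 of them the gap between the groups was over 1 on the log2 scale. Adjusted p-values of the called genes ran from 2.48e-09 to 0.011 (limma). Between the groups Mki67, a marker of proliferating cells, rose from 8.73 to 9.68 up to 11.79 to 12.12, a log2 fold change of 2.81 (adjusted p = 2.36e-06, limma). With the poly-A mean of each array as a covariate 34 of the 40 genes were called higher, and with the glycolysis and hypoxia mean 32. Both means are correlated with the group (r = -0.86 and -0.876 over the 9 clones), so that the group difference has a wider error in these fits.

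**Figure D1:**
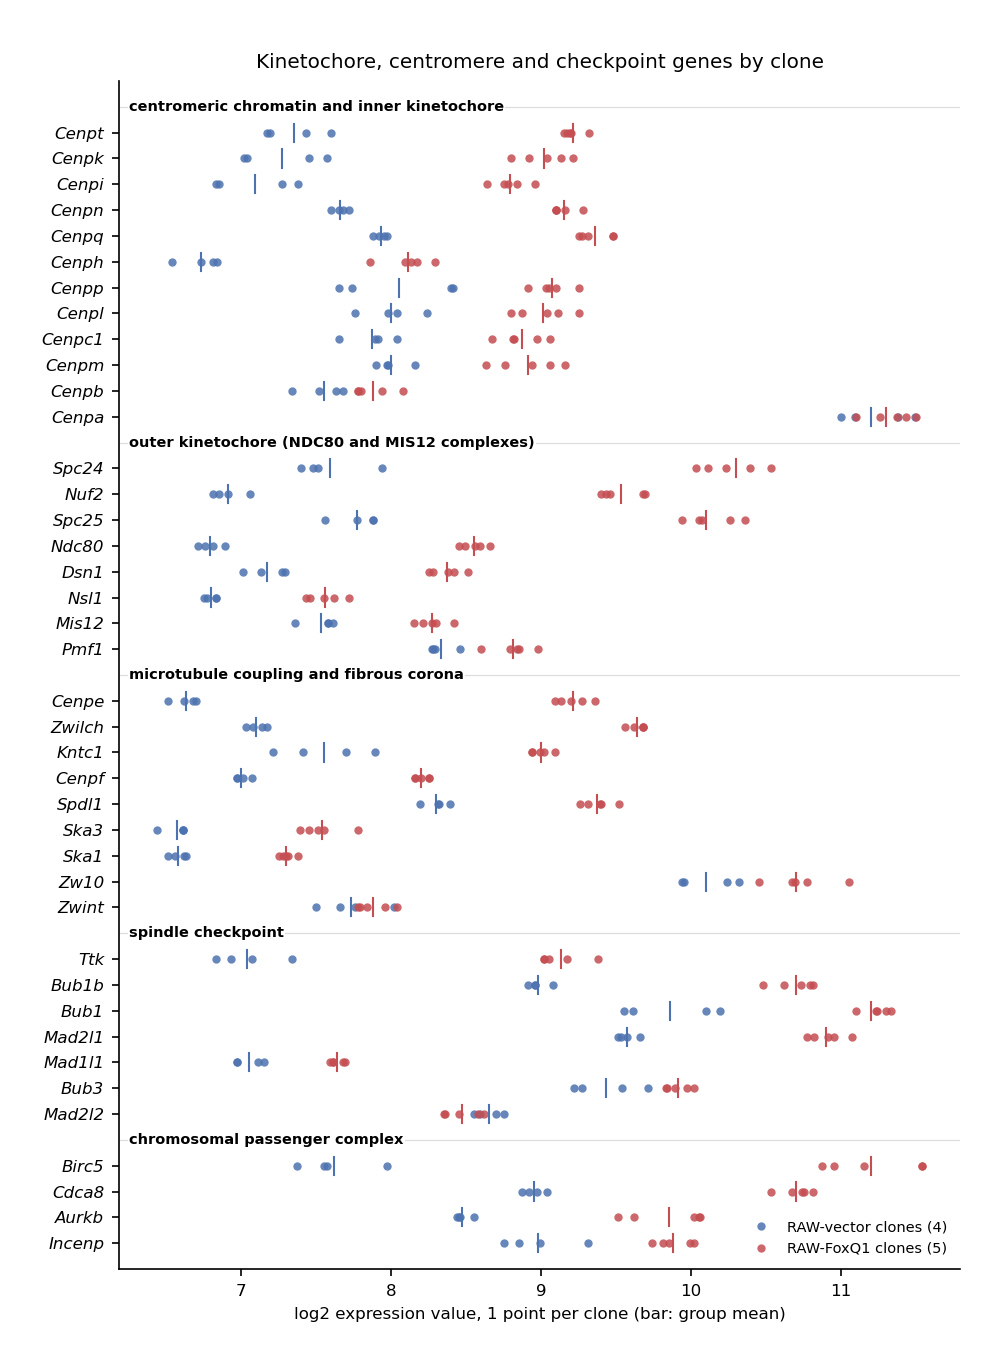
Log2 expression value (x axis) of each of the 40 genes (y axis, grouped by role and ordered by log2 fold change) in 4 RAW-vector clones (blue points) and 5 RAW-FoxQ1 clones (red points), with a bar at each group mean. Red and blue points overlap in Cenpa, Zwint and Mad2l2, and every red point lies right of every blue one in the other 37 genes.

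The genes stood on 18 chromosomes. Their RAW-vector means lay at a median of the 53 percentile of the array signal and their RAW-FoxQ1 means at the 77.8 percentile. In RAW-vector clones 25 of the 40 were above the array median, and in RAW-FoxQ1 clones 39 were, with Ska1 at the 45.8 percentile below it. Of the 100 rows with the largest increases (log2 fold changes of 1.65 or more) 13 were of these genes, and Birc5 was first of all rows.

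**Figure D2:**
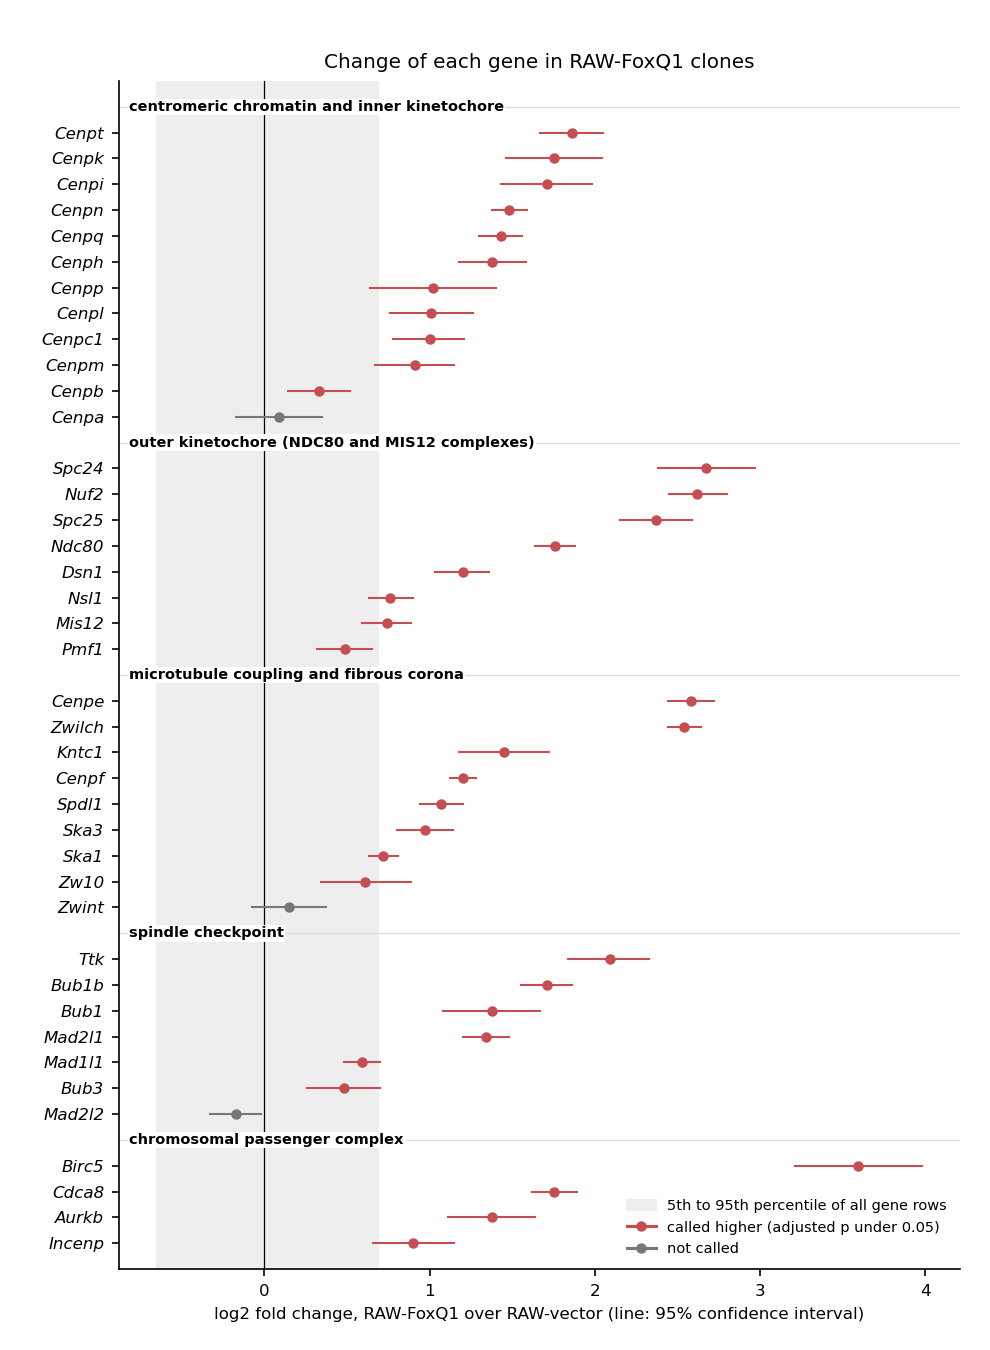
Log2 fold change of RAW-FoxQ1 over RAW-vector clones (x axis) for each of the 40 genes (y axis), with lines for the 95% confidence interval and a grey band from the 5th to the 95th percentile of all gene rows (-0.65 to 0.69). Of the 40 points 32 lie right of the band, Birc5 furthest at 3.59, and the 3 grey points (Cenpa, Zwint, Mad2l2) lie near 0.

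Promoters of genes for mitosis often hold a CHR element (cell cycle genes homology region), bound by the MuvB complex with B-Myb or FoxM1, downstream of CCAAT boxes bound by NF-Y. RefSeq (GRCm38.p6) gave promoter windows for 34 of the 40 genes, 39 windows of 300 bases with 250 before and 50 after the annotated start. Without a window were Zwilch, Incenp, Ska1, Aurkb, Spc24 and Nsl1. CHR letters (TTTGAA or TTCGAA, either strand) stood in 46.2% of the windows against 19.2% of all 32851 windows of the table and 14.8% of those of genes on the array. CCAAT on either strand stood in 66.7% against 37.4% and 37.3%, and CHR and CCAAT together in 38.5% against 7.52% and 5.87%. The forkhead letters TGTTTAC stood in 5.13% against 3.65% and 2.76%, that is in 2 windows, and E2F letters (TTTCCCGC or TTTGGCGC) in 10.3% against 1.56% and 2.38%. A match is a run of letters and does not show that a factor binds.

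Shown are the windows of Birc5, the gene with the largest increase, of Spc25, an NDC80 subunit with a log2 fold change of 2.37, and of Cenpa, which was not called (0.09). Capitals mark CHR letters and CCAAT or its reverse complement ATTGG, and position 1 is the first base from the annotated start. The windows lie at chr11:117848987-117849286 (plus strand) for Birc5, chr2:69206164-69206463 (minus strand) for Spc25 and chr5:30666636-30666935 (plus strand) for Cenpa, each printed 5′ to 3′ along the gene.
Birc5: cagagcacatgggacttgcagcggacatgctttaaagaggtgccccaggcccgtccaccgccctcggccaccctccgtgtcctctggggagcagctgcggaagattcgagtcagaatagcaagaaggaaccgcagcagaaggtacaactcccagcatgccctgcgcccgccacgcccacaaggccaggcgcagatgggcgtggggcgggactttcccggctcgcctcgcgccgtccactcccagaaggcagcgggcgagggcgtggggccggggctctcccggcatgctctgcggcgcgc
Spc25: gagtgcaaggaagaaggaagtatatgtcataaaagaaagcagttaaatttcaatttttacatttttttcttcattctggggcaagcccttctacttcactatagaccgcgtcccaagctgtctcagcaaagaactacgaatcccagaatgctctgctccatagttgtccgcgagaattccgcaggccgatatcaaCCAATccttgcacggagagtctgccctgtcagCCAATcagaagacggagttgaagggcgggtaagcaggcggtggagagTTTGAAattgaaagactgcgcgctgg
Cenpa: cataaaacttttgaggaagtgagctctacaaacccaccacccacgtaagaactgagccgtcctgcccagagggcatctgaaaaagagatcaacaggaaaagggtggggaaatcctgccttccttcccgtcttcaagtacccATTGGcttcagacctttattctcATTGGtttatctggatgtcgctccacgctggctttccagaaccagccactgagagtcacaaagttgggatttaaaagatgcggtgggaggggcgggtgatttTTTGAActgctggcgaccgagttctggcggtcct
The Birc5 window held none of the motifs searched. Spc25 had CCAAT from positions -55 and -23 and TTTGAA from 25, and Cenpa had the reverse complement of CCAAT from -109 and -86 and TTTGAA from 17. Spc25 and Cenpa thus held the same kinds of match, with log2 fold changes of 2.37 and 0.09. A link between matches and the size of change was not tested across the genes.

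Centromeric chromatin and the inner kinetochore were represented by 12 genes, of which 11 were higher and 1 was not called, with a median log2 fold change of 1.20. The largest increases were those of Cenpt, Cenpk and Cenpi, subunits of the constitutive centromere-associated network that links CENP-A nucleosomes to the outer kinetochore. CENP-T binds the NDC80 complex directly. Cenpt had log2 values of 7.17, 7.43, 7.60 and 7.19 in RAW-vector and of 9.15, 9.20, 9.19, 9.17 and 9.32 in RAW-FoxQ1 clones. Its means were 7.35 ± 0.204 (SD, n = 4) and 9.21 ± 0.0653 (SD, n = 5), a log2 fold change of 1.86 (SE 0.0862, adjusted p = 4.61e-07, limma). The lowest RAW-FoxQ1 clone thus stood well above the highest RAW-vector clone. Cenpk was at 7.04, 7.45, 7.57 and 7.02 against 9.13, 8.92, 8.80, 9.04 and 9.21, and rose by 1.75 (SE 0.131, adjusted p = 7.26e-06, limma). Cenpi was at 6.83, 7.27, 7.38 and 6.85 against 8.75, 8.64, 8.84, 8.78 and 8.96, and rose by 1.71 (SE 0.122, adjusted p = 5.89e-06, limma). In all 3 genes RAW-vector clones 5 and 6 were higher than clones 4 and 7. Cenpn, whose protein binds the CENP-A nucleosome itself, was tighter within the groups, at 7.68, 7.65, 7.72 and 7.60 against 9.10, 9.10, 9.10, 9.28 and 9.16, and rose by 1.48 (SE 0.0472, adjusted p = 5.1e-08, limma).

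Further network subunits rose by 1.43 (Cenpq), 1.38 (Cenph), 1.02 (Cenpp), 1.01 (Cenpl) and 0.91 (Cenpm) on the log2 scale, and Cenpc1, the scaffold that ties CENP-A to the MIS12 complex, was 1.99-fold higher (adjusted p-values of 2.02e-07 for Cenpq to 0.000905 for Cenpp, limma). Cenpp had the widest RAW-vector spread of the 40 genes (SD 0.414), with 8.41 and 8.40 in clones 4 and 7 and 7.74 and 7.65 in clones 5 and 6, while the RAW-FoxQ1 clones lay at 8.91 to 9.25. Its difference was 1.77 with the glycolysis and hypoxia covariate. The smallest differences of this list were those of Cenpb and Cenpa. Cenpb, which binds a sequence box in centromeric repeats, was at 7.52, 7.63, 7.68 and 7.34 against 7.78, 7.94, 8.08, 7.80 and 7.78. It rose by 0.33 (adjusted p = 0.011, limma), and the nearest clones of the groups were 0.0959 apart. With the glycolysis and hypoxia covariate its difference was 0.01, and with the poly-A covariate 0.08, both without a call.

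Cenpa, the histone H3 variant that marks the centromere, did not pass the test. Its values of 11.38, 11.09, 11 and 11.49 in RAW-vector and 11.43, 11.26, 11.10, 11.50 and 11.37 in RAW-FoxQ1 clones overlapped throughout. The difference was 0.09 (95% confidence interval -0.17 to 0.35, adjusted p = 0.583, limma). With the poly-A covariate it was 0.33 (adjusted p = 0.374, limma) and with the glycolysis and hypoxia covariate 0.57 (adjusted p = 0.0513, limma), outside that interval and still without a call. It was already among the strongest signals in RAW-vector clones, at the 96.4 percentile. Genes for the loading of CENP-A onto chromatin, named after their values were seen, were higher: the chaperone Hjurp by 0.90, and the Mis18 complex genes Mis18a by 1.45 and Oip5 (Mis18-beta) by 0.82 on the log2 scale (adjusted p-values of 2.98e-07 for Mis18a to 0.000503 for Hjurp, limma). Measured against Cenpa in the same clone, Cenpc1 went from a log2 difference of -3.59 to -3.06 in RAW-vector up to -2.69 to -2.30 in RAW-FoxQ1 clones. Signals of different probe sets share no scale, so in this and later differences between genes only the shift between the groups can be read. Signal over background limits that shift too, and by how much in each gene was not tested.

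All 8 genes of the outer kinetochore were higher, with a median of 1.48, and the NDC80 complex stood above the MIS12 complex. The 4 NDC80 subunits, which form the rod that holds the microtubule end, rose by 1.76 to 2.67 (median 2.50). The 4 MIS12 subunits, which join that rod to the inner kinetochore, rose by 0.49 to 1.20 (median 0.75), so the ranges of the complexes did not overlap. Spc24 was at 7.48, 7.51, 7.94 and 7.40 in RAW-vector and at 10.23, 10.11, 10.03, 10.39 and 10.53 in RAW-FoxQ1 clones, a 6.37-fold increase (log2 fold change 2.67, SE 0.131, adjusted p = 6.53e-07, limma). Nuf2, which pairs with NDC80 at the microtubule-binding end, was at 6.81, 6.91, 7.06 and 6.85 against 9.40, 9.43, 9.46, 9.69 and 9.68, a 6.17-fold increase (log2 fold change 2.62, SE 0.0796, adjusted p = 4.15e-08, limma). Spc25, the partner of Spc24 at the other end, was at 7.56, 7.88, 7.88 and 7.77 against 9.94, 10.05, 10.26, 10.07 and 10.36, a 5.16-fold increase (log2 fold change 2.37, SE 0.0978, adjusted p = 2.45e-07, limma). In each of these 3 genes the groups were separated by over 2 log2 units. Ndc80 itself, the subunit whose head contacts tubulin, rose less, from 6.89, 6.71, 6.81 and 6.76 to 8.49, 8.45, 8.59, 8.56 and 8.66 (log2 fold change 1.76, SE 0.0525, adjusted p = 3.99e-08, limma). Signal of Nuf2 minus that of Ndc80 went from -0.08 to 0.25 in RAW-vector up to 0.87 to 1.13 in RAW-FoxQ1 clones. Among MIS12 subunits Dsn1 rose by 1.20, Nsl1 by 0.76, Mis12 by 0.74 and Pmf1 by 0.49 on the log2 scale. Knl1, the remaining part of the outer kinetochore network and the platform for the BUB proteins, rose by 1.32 (adjusted p = 1.11e-06, limma; named after its value was seen).

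Of 9 genes for microtubule coupling and the fibrous corona 8 were higher, with a median of 1.07. Cenpe, the kinesin that carries chromosomes along microtubules to the spindle equator, was at 6.68, 6.70, 6.62 and 6.51 in RAW-vector and at 9.09, 9.13, 9.20, 9.27 and 9.36 in RAW-FoxQ1 clones. This 5.98-fold increase (log2 fold change 2.58, SE 0.0628, adjusted p = 1.31e-08, limma) took it from the 19.8 to the 79.4 percentile of the array signal. At the RAW-vector level signal over background limits how large a change can be measured. Of the 40 genes 10 (Ska3, Ska1, Cenpe, Cenph, Ndc80, Nsl1, Nuf2, Cenpf, Ttk and Mad1l1) had RAW-vector means at or below the 38.4 percentile, the highest of the fibroblast markers, and this limit touches the fold changes of each. It may reach beyond these 10, because T cell markers stood at up to the 56.9 percentile in RAW-vector clones. Further genes lay below that level, among them Birc5 (52.6), Spc24 (52), Zwilch (40.3), Cenpt (47) and Spc25 (55.5). The median of the 40 genes, at the 53 percentile, lay below it too. Lowest were Ska1 and Ska3, subunits of the complex that tracks shortening microtubule ends, which were at the 17.5 and 16.8 percentile in RAW-vector clones and rose by 0.72 and 0.97. Their partner Ska2 rose by 1.71 (adjusted p = 7.67e-07, limma). Cenpf, a large corona protein that also binds dynein regulators, rose by 1.20 with little spread, from 7.01, 6.97, 7.07 and 6.97 to 8.16, 8.25, 8.16, 8.25 and 8.20 (SE 0.0364, adjusted p = 4.15e-08, limma).

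The RZZ complex, which recruits dynein and the MAD1-MAD2 dimer to unattached kinetochores, was uneven. Zwilch was at 7.14, 7.17, 7.03 and 7.08 in RAW-vector and at 9.68, 9.62, 9.68, 9.56 and 9.68 in RAW-FoxQ1 clones, a log2 fold change of 2.54 (SE 0.0426, adjusted p = 2.48e-09, limma), the smallest adjusted p of the 40 genes. Kntc1 (ROD) was at 7.41, 7.70, 7.89 and 7.21 against 9.09, 9.02, 8.94, 8.99 and 8.94, and rose by 1.45 (SE 0.12, adjusted p = 1.3e-05, limma). Zw10, which also serves membrane traffic between the Golgi and the endoplasmic reticulum, was at 9.95, 10.24, 10.32 and 9.94 against 10.45, 10.77, 11.05, 10.67 and 10.69, and rose by 0.61 (SE 0.123, adjusted p = 0.00295, limma). The groups were close to each other in Zw10 and far apart in the other 2 subunits. Zwilch minus Zw10 in the same clone went from -3.29 to -2.81 up to -1.37 to -0.77. The call of Zw10 was lost with the poly-A covariate (0.41, adjusted p = 0.307, limma), and its difference vanished with the glycolysis and hypoxia covariate. Spdl1 (Spindly), the dynein adaptor that the RZZ complex recruits, rose by 1.07. Zwint, the link between the RZZ complex and KNL1, did not pass the test: it was at 7.76, 7.66, 7.50 and 8.02 against 7.84, 7.96, 8.04, 7.78 and 7.79, a difference of 0.15 (95% confidence interval -0.08 to 0.37, adjusted p = 0.28, limma). Its highest RAW-vector clone, clone 7, reached into the upper part of the RAW-FoxQ1 range, and without that clone the difference was 0.24 (adjusted p = 0.0398, limma). It was 0.32 with the glycolysis and hypoxia covariate, without a call.

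Of the 7 checkpoint genes 6 were higher, with a median of 1.34. Ttk (MPS1), the kinase that starts checkpoint signalling, rose the most, from 6.83, 7.07, 7.34 and 6.93 to 9.02, 9.05, 9.02, 9.17 and 9.38 (log2 fold change 2.09, SE 0.11, adjusted p = 9.72e-07, limma). Bub1b (BUBR1), which is built into the mitotic checkpoint complex that inhibits CDC20, was at 8.96, 8.91, 9.08 and 8.96 against 10.81, 10.62, 10.48, 10.79 and 10.73, and rose by 1.71 (SE 0.0692, adjusted p = 2.19e-07, limma). Mad2l1 (MAD2), another subunit of that inhibitor, was at 9.66, 9.53, 9.51 and 9.57 against 10.91, 10.82, 10.77, 10.95 and 11.07, and rose by 1.34 (SE 0.0617, adjusted p = 4.51e-07, limma). These 3 genes had clear gaps between the groups. Bub1, a kinase that also marks centromeric histone H2A, was at 10.10, 9.55, 9.61 and 10.19 against 11.33, 11.10, 11.23, 11.24 and 11.30, and rose by 1.38 (SE 0.132, adjusted p = 3.15e-05, limma). Here RAW-vector clones 4 and 7 were above clones 5 and 6, the reverse of the order in Kntc1 and Cenpi.

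The remaining checkpoint genes changed less. Mad1l1 (MAD1), which presents MAD2 at the kinetochore, rose by 0.59 (adjusted p = 1.1e-05, limma). Bub3, the adaptor that brings BUB1 and BUBR1 to KNL1, was at 9.27, 9.54, 9.71 and 9.22 against 9.84, 9.89, 9.83, 9.97 and 10.02, and rose by 0.48 (adjusted p = 0.00339, limma), without a call under either covariate (0.46 and 0.13). Its RAW-vector clone 6 came within 0.12 of the lowest RAW-FoxQ1 clone. Bub1b minus Bub3 went from -0.63 to -0.26 in RAW-vector up to 0.66 to 0.97 in RAW-FoxQ1 clones, a shift of 1.23. Mad2l2, named for its likeness to MAD2 and better known as REV7 of translesion DNA synthesis and the shieldin complex, was the single gene of the 40 with a negative difference. It was at 8.70, 8.55, 8.59 and 8.75 against 8.58, 8.45, 8.36, 8.35 and 8.62, a difference of -0.17 that did not pass the test (95% confidence interval -0.33 to -0.02, adjusted p = 0.0698, limma). The groups overlapped in part. It was called lower with arrays centred on housekeeping genes (-0.24, adjusted p = 0.0164, limma) and without RAW-FoxQ1 clone 7.5 (-0.21, adjusted p = 0.0326, limma), and stood at 0.01 and 0.02 with the poly-A and the glycolysis and hypoxia covariate. Mad2l1 minus Mad2l2 went from 0.82 to 0.98 in RAW-vector up to 2.33 to 2.60 in RAW-FoxQ1 clones.

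All 4 genes of the chromosomal passenger complex were higher, with a median of 1.56. Birc5 (survivin), which targets the complex to the inner centromere and is also studied as an inhibitor of apoptosis, was at 7.57, 7.55, 7.97 and 7.37 in RAW-vector and at 11.15, 10.95, 10.87, 11.54 and 11.54 in RAW-FoxQ1 clones. Its means were 7.62 ± 0.25 (SD, n = 4) and 11.2 ± 0.32 (SD, n = 5). It was the gene with the longest distance between the groups, 2.90 from the highest RAW-vector to the lowest RAW-FoxQ1 clone. Cdca8 (borealin), which with survivin docks on centromeric chromatin, was at 8.97, 8.87, 9.04 and 8.92 against 10.67, 10.53, 10.74, 10.75 and 10.81, and rose by 1.75 (SE 0.0596, adjusted p = 7.6e-08, limma). Aurkb, the kinase of the complex, was at 8.46, 8.44, 8.45 and 8.55 against 10.02, 9.62, 9.51, 10.05 and 10.06, and rose by 1.38 (SE 0.119, adjusted p = 1.64e-05, limma). Among RAW-FoxQ1 clones 7.2 and 7.3 were the lowest for both Birc5 and Aurkb. Incenp, the scaffold that activates Aurora B, was at 8.85, 8.99, 9.31 and 8.75 against 9.85, 9.74, 9.81, 10.02 and 9.99, and rose by 0.90 (SE 0.109, adjusted p = 0.000134, limma). Signals of subunits of 1 complex thus moved by unequal amounts, with Birc5 minus Incenp at -1.44 to -1.28 in RAW-vector and at 1.06 to 1.55 in RAW-FoxQ1 clones. Incenp lost its call with the glycolysis and hypoxia covariate (0.57, adjusted p = 0.0934, limma).

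The clones of a group were close to each other over the 40 genes. Mean log2 values were 7.89, 7.89, 7.93 and 7.87 in RAW-vector and 9.20, 9.15, 9.17, 9.24 and 9.32 in RAW-FoxQ1 clones. Clone 7.5 was the highest RAW-FoxQ1 clone in 21 of the 40 genes and the lowest in 0, whereas over all rows it was the highest in 18.7% and the lowest in 19.4%. Clone 7.3 was the lowest in 16 of the 40 (24.8% of all rows). Among RAW-vector clones, clone 6 was the highest in 18 genes (33.6% of all rows) and the lowest in 11 (30.2%). An order with clones 4 and 7 both above or both below clones 5 and 6, noticed in the data, was found in 28 of the 40 genes (13 above, 15 below) and in 54.1% of all rows. Of the 28 glycolysis and hypoxia genes 25 had clones 4 and 7 above and 1 had them below. Whether the orders are connected was not tested.

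**Figure D3:**
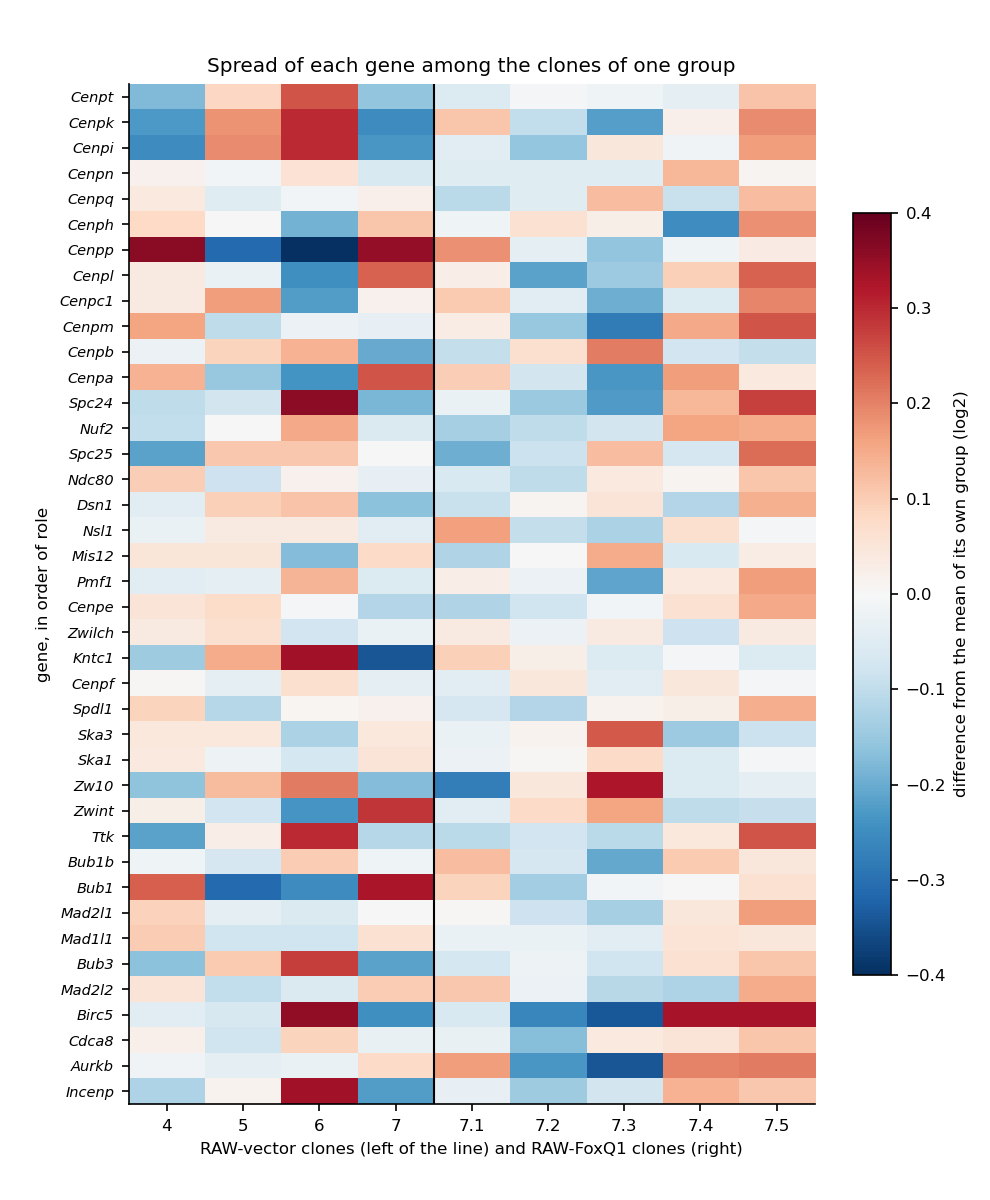
Difference of each clone (columns, 4 RAW-vector left and 5 RAW-FoxQ1 right of the line) from the mean of its own group in log2 units (colour, red above and blue below the mean) for the 40 genes (rows). The column of clone 7.5 is mostly red, and in RAW-vector clones Cenpp and Bub1 are red in clones 4 and 7 and blue in clones 5 and 6, while Cenpi, Cenpk, Zw10 and Bub3 are the reverse.

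Genes outside the 40 that work beside them rose less evenly. Of 42 other measured kinetochore and centromere genes 34 were higher and 2 lower, with a median of 0.86. Over all rows 19.6% were called higher and 21.4% lower. The increases were led by the kinase Plk1 (2.39), the centromeric cohesin protector Sgo1 (2.25), the nucleoporin Nup85 of a complex that sits on mitotic kinetochores (2.02) and Ska2. The lower ones were Mad2l1bp (-0.27, adjusted p = 0.00169, limma), the adaptor with which the ATPase TRIP13 takes checkpoint complexes apart, and the microtubule stabiliser Clasp2 (-0.16, adjusted p = 0.011, limma). Trip13, named after its value was seen, rose by 1.44. The list of the anaphase-promoting complex, the ubiquitin ligase that the checkpoint restrains, had 9 of 17 genes higher and 2 lower, with a median of 0.21. Its largest increases were those of the activator Cdc20 (2.79), the ubiquitin-conjugating enzyme Ube2c (2.03) and the inhibitor Fbxo5 (1.98), followed by the core subunit Anapc5 (0.94), while the core subunits Anapc16 (-0.70) and Anapc7 (-0.19) were lower. No core subunit of the ligase measured here rose by 1 or more on the log2 scale.

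Of 16 genes of cohesin, separase and securin 11 were higher and 1 lower (Stag2, -0.10), with a median of 0.64, led by separase (Espl1, 2.35), the acetyltransferase Esco2 (1.92), securin (Pttg1, 1.60) and sororin (Cdca5, 1.55). Condensin, which compacts chromosomes, had 7 of 7 genes higher with a median of 1.24, among them Ncapd2 (2.29), Smc2 (2.02), Ncapg2 (1.55) and Smc4 (1.24). Among 15 regulators of mitotic genes 9 were higher and 0 lower (limma), with a median of 0.24. At an unadjusted p under 0.05 from limma 1 (E2f5) was lower. The methods' per-gene test, at an adjusted p under 0.05, called 0 of them lower. The RB relative Rbl1 rose by 1.64, B-Myb (Mybl2) by 1.15, FoxM1 (Foxm1) by 0.94 and the E2F partner Tfdp1 by 0.89 on the log2 scale (adjusted p-values of 4.97e-07 for Mybl2 to 3.88e-05 for Foxm1, limma). Over these lists together 70 of 97 measured genes were higher and 5 lower, beside 19.6% and 21.4% of all rows.

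**Figure D4:**
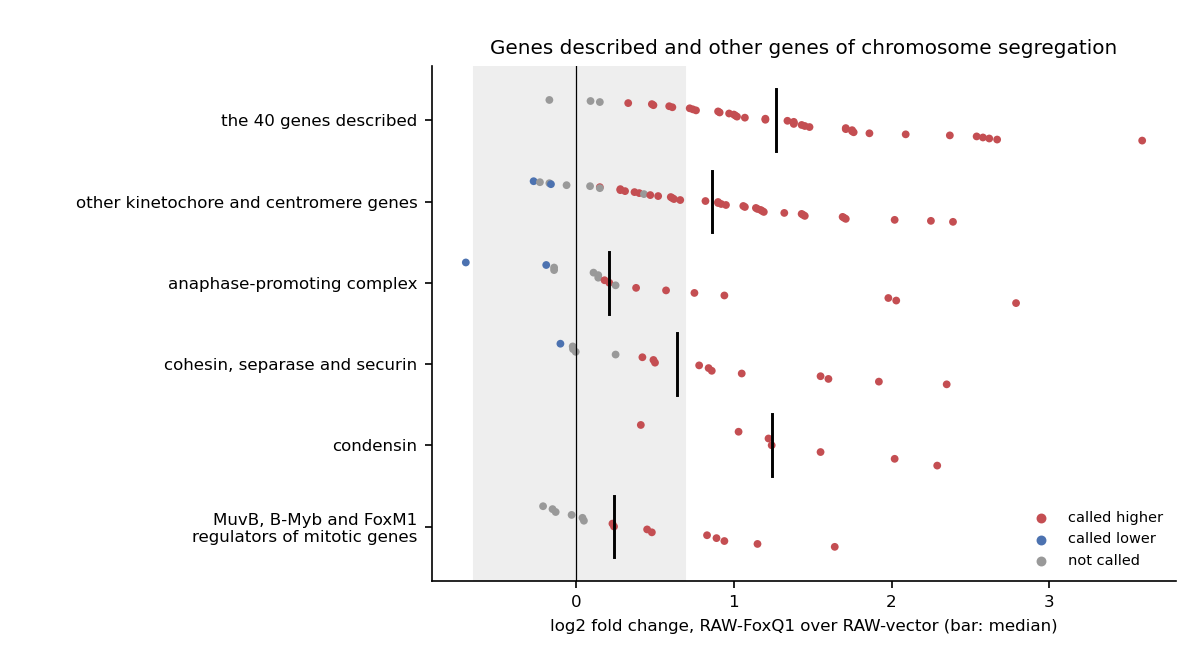
Log2 fold change of RAW-FoxQ1 over RAW-vector clones (x axis) of the 40 genes and of 5 lists of other genes of chromosome segregation (y axis), 1 point per gene in red (called higher), blue (called lower) or grey (not called), with a black bar at each median and the band from the 5th to the 95th percentile of all rows. The medians run from 1.27 for the 40 genes to 0.21 for the anaphase-promoting complex.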

How the data were processed

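Deposited values were log2 expression values, 1 row per gene, that the authors had made from GeneChip Mouse Genome 430 2.0 arrays with a Custom CDF (version 12) based on Entrez genes and with quantile normalization. RMA is named in the submitters' processing notes (its version: not given in the sources used here). Of 16556 rows 64 control rows were left out, and 16258 of 16492 gene rows were named through RefSeq by Entrez ID or through the platform annotation, 234 remaining without a symbol. Background correction could not be varied, and the number of arrays limits the precision. Groups were taken from the labels and compared with lmFit and eBayes (limma 3.58.1, R 4.3.3) with no other term than the group and no filter, with calls at an adjusted p (Benjamini-Hochberg) under 0.05, as in the study's methods. SE and confidence intervals are limma's. In a two-sided exact permutation test, which has 126 splits of 9 clones, the smallest possible p, 0.00794, was reached for 36 of the 37 genes called higher, with p = 0.0159 for Zw10. The fit was tested on simulated data. Counts, figures and promoter motifs were made with Python 3.11.15, pandas 2.3.3 and matplotlib 3.10.9.

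The 40 genes, the other lists, written from textbook knowledge, and the alternatives were chosen with earlier results of these data known. Per-clone values are given for up to 4 genes of each role group by size of change and for each gene not called higher, others being added where a clone or complex is described; of the other lists up to 4 called genes per direction are named, with exceptions stated. Alternatives were the one-way ANOVA of the methods, array weights, eBayes with trend and robust settings, dropping genes below the 40 percentile of mean signal, centring on 9 housekeeping genes, the poly-A or the glycolysis and hypoxia mean as a covariate, a threshold of 1 on the log2 fold change, and fits without each clone in turn. Columns of other samples were not present (0 left out).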

Additional observations from a re-analysis of the deposited data

Results flagged for a closer look

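Each of the 40 genes was looked at for a clone far from the others of its group, 80 groups in all, where chance flags about 1 in 20. There were 3 such values, all in RAW-vector clone 6. Mis12 was at 7.36 in that clone and at 7.58 to 7.61 in the other RAW-vector clones, a gap of 0.852 of the group's range. Pmf1 was at 8.46 there and at 8.27 to 8.29 in the others (0.921 of the range), and Ska3 was at 6.44 there and at 6.61 in each of the others (0.975 of the range). Mis12 and Ska3 were low and Pmf1 was high in this clone, and each of the 3 genes was called higher in RAW-FoxQ1 clones without it.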

How the results depend on the processing

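The count of 37 genes called higher was the same under the one-way ANOVA of the methods, trend and robust settings, array weights and housekeeping centring, and was 37 to 38 with 1 clone left out. Dropping genes dim in the mean of all 9 clones removed Ska1 and Ska3 and left 35 higher. That mean includes the RAW-FoxQ1 clones, so the filter keeps genes that are dim in RAW-vector clones only. Cenpe and Nuf2, at the 19.8 and 33 percentile in RAW-vector clones, stayed in, and the filter is no check on such genes. With the poly-A covariate Cenpb (0.08), Zw10 (0.41) and Bub3 (0.46) lost their call, and with the glycolysis and hypoxia covariate Cenpb (0.01), Pmf1 (0.47), Bub3 (0.13), Incenp (0.57) and Zw10, whose difference turned to -5.7e-05, did. Mad2l2 turned to 0.0099 and 0.024 with these covariates. Both covariates follow the group, and whether either has a part in the changes was not tested further. The median of the 40 genes was 1.20 with housekeeping centring and 1.41 with the poly-A covariate, and that of the 38 genes kept by the filter was 1.36. Genes of the 40 called lower numbered 1 (Mad2l2) with housekeeping centring and 0 to 1 with 1 clone left out, 1 without RAW-FoxQ1 clone 7.5.

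At a log2 fold change of at least 1, 5 outer kinetochore and 5 coupling and corona genes remained higher, as did 17 other kinetochore genes, 3 of the anaphase-promoting complex list, 5 of the cohesin list and 2 regulators. The 2 other kinetochore genes called lower became 4 with housekeeping centring, 1 with the poly-A covariate, and 0 with the glycolysis and hypoxia covariate or the fold threshold, and the 2 of the anaphase-promoting complex list became 0 with either covariate or that threshold. Stag2 in the cohesin list lost its call (0 lower) with trend and robust settings, dim genes dropped, either covariate or that threshold, and 0 to 1 genes were lower with 1 clone left out, 0 without RAW-vector clones 4 or 7 or RAW-FoxQ1 clones 7.1, 7.3 or 7.4. Among regulators 1 gene was lower with array weights or housekeeping centring, and 0 to 1 with 1 clone left out, 1 without RAW-vector clone 6 or RAW-FoxQ1 clone 7.3. The causes were not tested. Over all rows 6748 genes were called, 2735 with the poly-A and 2340 with the glycolysis and hypoxia covariate, where smaller counts follow in part from the wider error. No paired analysis was possible because the groups share no replicate numbers. Cenpa moved to 0.33 with the poly-A and 0.57 with the glycolysis and hypoxia covariate, where Cenpp was at 1.77. Signal over background limits what can be said of the dimmest genes in RAW-vector clones, 10 of the 40 being at or below the highest fibroblast marker. The highest T cell marker stood above that, at the 56.9 percentile. Below it lay further genes of the 40, Birc5 among them, and the median of the 40 genes (53).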
